A study of Mus musculus with 4 samples.

Results

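Neutrophils of the ascites of BTYNB-treated mice were selected by a gate on single-cell UMI counts (unique molecular identifiers, 1 per captured RNA molecule), which kept 617 of 18283 cells of that library and of 45178 cells of the series. A cell needed at least 200 genes and at most 33% mitochondrial UMIs, at least 5 UMIs of S100a8 plus S100a9 and at least 1 UMI of Csf3r, Cxcr2 or Retnlg. It was left out with any C1qa, C1qb or C1qc UMI, more than 1 UMI of Cd3d, Cd3e and Cd3g, more than 2 of Cd79a and Cd79b, or more than 2 of Krt7, Krt8, Krt18 and Krt19. These genes chose the cells, so their levels are a description and carry no test. The gate was set with measured values in view.

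All mice were C57BL/6 and carried intraperitoneal ID8-Trp53-/- ovarian cancer cells, a mouse line without Trp53, engrafted for 7 days. Treatment was then given repeatedly until the mice reached the end point of about 3 mL of ascites. Control mice received DMSO with an IgG2a control antibody, the BTYNB group BTYNB (a small-molecule inhibitor of the RNA-binding protein Igf2bp1) with the same control antibody, the anti-PD-1 group DMSO with a PD-1 blocking antibody, and the combination group BTYNB with that antibody. The labels give BTYNB at 50 mg per kg and the antibodies at 100 ng per dose, and the study's methods state other doses, so no dose was used in a comparison. Erythrocytes were depleted, cells were cryopreserved, dead cells were removed where applicable, and the cells of all animals of a treatment were pooled into 1 library, so no value below has a replicate and none was tested. All intervals are 95% intervals of counting error only.

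Neutrophils are short-lived granulocytes made in the bone marrow. Their granule proteins are transcribed in an ordered way during maturation, first the primary granule proteases, then the secondary granule proteins and last the gelatinase granule proteins, so that these transcripts mark the stage of a cell. On activation in tissue, mature neutrophils transcribe a small set of cytokines and chemokines such as Il1b and Cxcl2, and RNA content per cell is low compared with that of monocytes and macrophages.

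The cells at the edges of the gate were counted. Of 727 cells that passed the quality limits with at least 5 S100a8 plus S100a9 UMIs, 700 also had a UMI of Csf3r, Cxcr2 or Retnlg, and 83 of these were left out by the terms on other lineages. Just inside the gate, 23 neutrophils had exactly 5 S100a8 plus S100a9 UMIs, and just outside it 12 cells had exactly 4 and met all other terms. The cells at 5 held 8.61 UMIs of Mmp9, Il1r2 and Hdc per 1000 UMIs and those at 4 held 10.1, with median depths of 1289 and 1466 UMIs. At the receptor term, 28 neutrophils had exactly 1 UMI, with 4.60 UMIs of Mmp9, Il1r2 and Hdc and 2.08 of Cd74 per 1000 UMIs, against 0.379 of Cd74 in the cells at 5 S100a8 plus S100a9 UMIs. A further 18 cells met every other term but had no receptor UMI.

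The 617 neutrophils made up 3.37% of the BTYNB cells (Clopper-Pearson interval 3.12 to 3.65%). They held 905 to 30060 UMIs with a median of 1375, a median of 763 genes and a median mitochondrial share of 2.05%. The other 3 libraries could not be compared at this depth, since their smallest deposited cells had 4438 UMIs (control), 3533 (anti-PD-1) and 5115 (combination), against 869 in the BTYNB library. The same gate kept 4 of 7834 control cells, 0 of 12019 anti-PD-1 cells (Clopper-Pearson upper limit 0.0307%) and 1 of 7042 combination cells. Among cells of at least 5115 UMIs, the depth that every library covers, it kept 24 of 5521 BTYNB cells (0.435%), 3 of 7367 control cells, 0 of 9256 anti-PD-1 cells and 1 of 7042 combination cells. The 24 include all 9 primary granule cells described below, which had at least 5938 UMIs and held no Il1b, Cxcl2 or Mmp9 UMI. They are thus not typical of the 617 neutrophils. The 5 gated cells of the other libraries held 4674 to 11397 UMIs. Only 1 of them, a control cell with 21 Retnlg, 3 Csf3r and 5 Mmp9 UMIs, had more than 2 UMIs of Retnlg. Another control cell, of 4674 UMIs, held 363 S100a8 and 266 S100a9 UMIs, with 2 of Retnlg, 1 of Il1r2 and 46 of Lyz2. A pair of control cells held 24 and 48 Ly6c2 UMIs. Between 0 and 4 cell barcodes were shared by any pair of libraries, and 0 of them belonged to a gated BTYNB cell.

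The comparison group was the monocytes of the same library, 531 cells with at least 1 Ly6c2, 1 Ccr2 and 3 Lyz2 UMIs that met the same quality and lineage limits and were not neutrophils. A further 16 cells passed both gates and stayed with the neutrophils. Monocytes were deeper, with a median of 3686 UMIs and 1661 genes and a median mitochondrial share of 7.05%. UMIs were summed over the cells of each group and given as counts per 1000000 UMIs of that group (CPM), from 1152250 UMIs for neutrophils and 2244793 for monocytes, and the log2 ratio is neutrophils over monocytes throughout. Shares of cells with a UMI of a gene were taken after thinning each cell to 800 UMIs, and all cells of both groups were deep enough for this.

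The genes of the gate, whose levels follow from the selection, are given as a description. S100a9 stood at 22566 CPM in neutrophils and 111 CPM in monocytes, and S100a8, its partner in calprotectin, at 19639 and 143 CPM. Together they took 4.22% of the neutrophil UMIs. Retnlg, a resistin-like protein of mature neutrophils, stood at 3404 CPM with 0 monocyte UMIs, Cxcr2, the receptor for Cxcl1 and Cxcl2, at 1874 against 0.891 CPM, and Csf3r, the G-CSF receptor, at 2100.2 against 70.4 CPM. The label was checked with marker genes that no gate used. The 5 such neutrophil markers summed to 7545 CPM in neutrophils and 311 in monocytes, and the 7 monocyte markers to 1275 and 6203 CPM. Ly6g, the surface marker usually used to sort mouse neutrophils, had 149 UMIs in neutrophils and 0 in monocytes, but after thinning to 800 UMIs only 6.00% of neutrophils held one (interval 4.26 to 8.17%).

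Markers of other cells were not absent, and several of their sums stood above the monocyte level. The 8 macrophage markers outside the gates summed to 286 CPM in neutrophils against 2518 in monocytes and 4149 in the C1q macrophages of the library, with Timd4 at 0 in neutrophils. Eosinophil markers summed to 75.5 against 16.9 CPM, with Prg2, Il5ra and Ear1 at 0 in neutrophils, and basophil and mast cell markers to 10.4 against 8.02 CPM, with Mcpt8, Ms4a2, Fcer1a and Prss34 at 0. Dendritic cell markers summed to 156 CPM in neutrophils, 395 in monocytes and 63.7 in the C1q macrophages, so the comparison group held some dendritic cell transcripts. T cell markers reached 26.0 CPM in neutrophils against 2302 in T cells. The 8 non-keratin tumour markers reached 266 CPM in neutrophils, 123 in monocytes and 1964 in tumour cells, and erythroid genes 489 against 315 CPM. The part of these transcripts in the results below was not tested. RNA from outside the cells (free RNA), estimated from the tumour markers, came to 20.7% of neutrophil and 9.63% of monocyte UMIs.

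The upstream sequences of the granule genes Ngp and Ltf and of the chemokine Cxcl2 are shown because they held matches to the letters searched below, a choice made after the matches were seen. The 250 bases before the RefSeq transcription start (GRCm38.p6, plus strand) were searched on both strands for the C/EBP letters TTGCNNAA, which C/EBP factors of granulocytes can bind, and for NF-kB letters, GGG and TTCC with any 3 bases between them. Matches are in capitals. The sequences of Ngp at chr9:110419558-110419807, Ltf at chr9:111019042-111019291 and Cxcl2 at chr5:90903649-90903898 follow.
Ngp: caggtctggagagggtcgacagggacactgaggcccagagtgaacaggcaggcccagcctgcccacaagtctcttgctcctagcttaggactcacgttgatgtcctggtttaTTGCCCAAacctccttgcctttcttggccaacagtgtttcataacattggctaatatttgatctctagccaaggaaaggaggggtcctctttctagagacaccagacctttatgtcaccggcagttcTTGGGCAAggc
Ltf: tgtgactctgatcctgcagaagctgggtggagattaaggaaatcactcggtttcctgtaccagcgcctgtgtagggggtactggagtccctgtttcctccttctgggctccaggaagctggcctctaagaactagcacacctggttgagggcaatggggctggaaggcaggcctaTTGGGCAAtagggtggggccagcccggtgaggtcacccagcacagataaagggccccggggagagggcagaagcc
Cxcl2: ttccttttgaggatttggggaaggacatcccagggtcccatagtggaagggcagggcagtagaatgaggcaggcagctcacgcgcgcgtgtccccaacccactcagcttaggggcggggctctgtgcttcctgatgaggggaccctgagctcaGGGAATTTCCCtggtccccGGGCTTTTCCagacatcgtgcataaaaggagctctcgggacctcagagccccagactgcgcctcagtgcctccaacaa
Ngp held 2 C/EBP matches, 138 and 11 bases before the start, and Ltf 1, at 75 bases. Cxcl2 held 3 NF-kB matches at 97, 96 and 78 bases, the first pair overlapping. Of 32851 RefSeq promoters, 9.56% held the C/EBP letters and 4.65% the NF-kB letters. Of the 15 genes with the highest ratio, 13 had a promoter in the table, 3 of these held the C/EBP letters and 0 the NF-kB letters, and Camp, a granule gene whose lower bound on the ratio was above that of Ltf, Il1b and Acod1 held neither. A match is only a match of letters.

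Of 6115 genes with a mean of at least 20 CPM that no gate used, 950 were at least 2-fold higher in neutrophils (15.5%) and 946 at least 2-fold lower (15.5%), with a median log2 ratio of -0.04 over all of them. Members of the gene lists below are read against these shares. Each list is described by those of its members that passed this filter, and a member can pass through the higher group alone, so its counts support nothing by themselves.

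**Figure D1:**
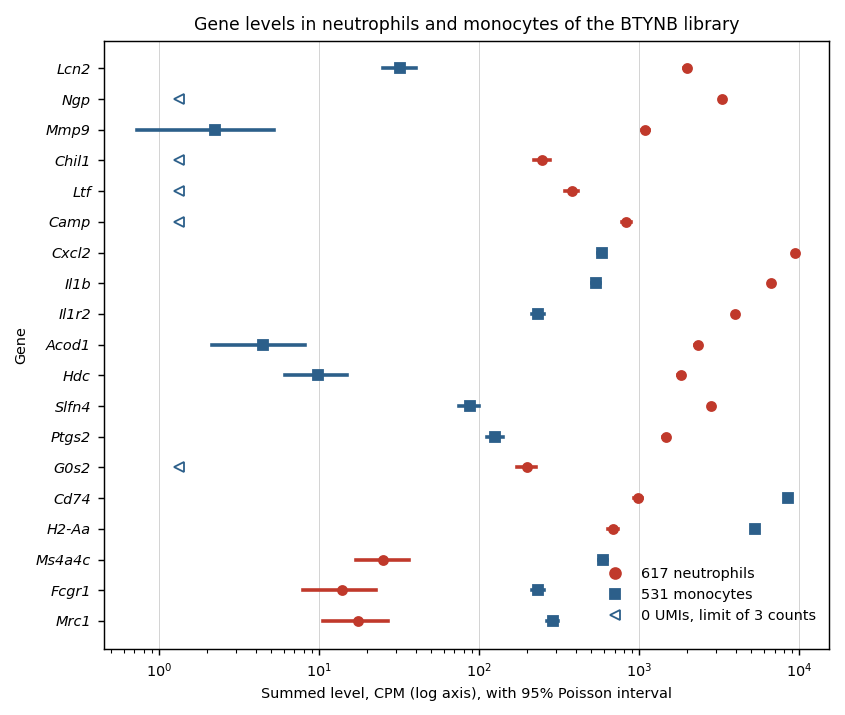
Summed level in CPM (log axis) of 19 genes in the 617 neutrophils (red circles) and 531 monocytes (blue squares) of the BTYNB library, with 95% Poisson intervals that are often narrower than the symbol. Open triangles mark the limit of 3 counts for genes with 0 monocyte UMIs. Lcn2 through G0s2 lie to the right in neutrophils, and Cd74 through Mrc1 lie to the right in monocytes.

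Most secondary and gelatinase granule genes were higher in neutrophils, several of them by far. Of 9 secondary granule members that passed the filter of 10, 6 were at least 2-fold higher and 1 lower. Their median log2 ratio was 3.06, with an interval over members of -0.51 to 9.28. Chil3, a member under 2-fold, stood at 719 against 579 CPM. Ngp, neutrophilic granule protein, stood at 3277 CPM with 0 of 2244793 monocyte UMIs, at least 2452-fold higher against the limit of 3 counts over the group. Camp, the cathelicidin precursor, stood at 829 CPM and was at least 620-fold higher, and Ltf, lactoferrin, at 378 CPM and at least 283-fold higher. Lcn2, a siderophore-binding lipocalin, stood at 1976 against 32.1 CPM, a 61.6-fold difference (48.7 to 79.0). Of the 8 gelatinase granule and secretory vesicle members that passed of 10, 7 were at least 2-fold higher. Mmp9, the gelatinase itself, stood at 1092 against 2.23 CPM (log2 ratio 8.94, 7.71 to 10.56). Slpi, a serine protease inhibitor, stood at 520 against 37.4 CPM and Fpr1, the formyl peptide receptor, at 143 against 10.7 CPM. Itgam, an integrin chain of both cell types, stood at 702 against 827 CPM. Cybb, the catalytic subunit of the phagocyte oxidase, was at least 2-fold lower, at 400.1 against 943 CPM.

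These granule genes were not spread alike over the cells. Mmp9 had a UMI in 55.9% of neutrophils thinned to 800 UMIs (51.9 to 59.9%) against 0.188% of monocytes and 0.483% of T cells, whose median depth was 2080 UMIs. Lcn2 had one in 32.9% and Retnlg in 31.9%. Ngp was found in only 6.65% (4.81 to 8.91%), Camp in 3.57% and Ltf in 3.24%, although their summed levels were high. Without thinning, 44 of 617 neutrophils held an Ngp UMI, 10 of them held 66.4% of its 3776 UMIs, and the highest cell held 433. Ngp, Camp and Ltf were thus a property of few cells, and Mmp9 of most. Chil3 and Cybb were uneven too. In unthinned cells, Chil3 had a UMI in 10.9% of neutrophils and 54.8% of the deeper monocytes, and Cybb in 11.2 and 80.6%. Among neutrophils, 10 cells held 64.5% of the Chil3 UMIs and 10 cells 49.2% of the Cybb UMIs.

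Genes of circulating mature neutrophils had the highest list median, 5.20 over the 16 members that passed of 23, with 14 at least 2-fold higher and 0 lower. Of the 16, 5 had 0 monocyte UMIs, so their ratios are bounds. In the list of tissue and tumour neutrophil genes all 20 members passed, 10 at least 2-fold higher and 0 lower. Its median was 1.17, with an interval over members of 0.38 to 2.42. Il1r2, the decoy receptor for interleukin 1, stood at 3943 against 233 CPM (16.9-fold, 15.5 to 18.6), and 88.7% of thinned neutrophils held a UMI. Hdc, histidine decarboxylase, which makes histamine, stood at 1830.3 against 9.80 CPM, and Slfn4, a schlafen protein, at 2819 against 86.9 CPM. The stefin gene Stfa2l1 stood at 455 CPM with 0 monocyte UMIs, but stefin genes and Cstdc4 (289 UMIs against 1) are near-identical copies, and reads may be split between them.

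Inflammatory cytokines and chemokines were among the genes with the largest share of neutrophil UMIs. Of 18 members that passed of 22, 12 were at least 2-fold higher and 3 lower, with a median log2 ratio of 1.48. Cxcl2, a ligand of Cxcr2, stood at 9407 against 580 CPM (log2 ratio 4.02, 3.94 to 4.10), and Il1b, interleukin 1 beta, at 6633 against 539 CPM (3.62, 3.53 to 3.71). Both were common: after thinning, 88.8% of neutrophils held Il1b (86.1 to 91.2%) and 74.4% held Cxcl2, against 29.8 and 23.4% of monocytes and 0.790 and 1.01% of T cells. The median neutrophil held 10 Il1b UMIs and the highest 65, and for Cxcl2 the median was 9 and the highest 122. Csf1, the macrophage colony-stimulating factor, stood at 752 against 5.79 CPM (7.02, 6.24 to 7.94), with a UMI in 31.6% of thinned neutrophils and 0.753% of monocytes. Il1rn, the interleukin 1 receptor antagonist, stood at 269 against 16.5 CPM, Cxcl3 at 201 against 4.01 CPM and Ccl3 at 1266 against 90.9 CPM. Osm stood at 437 against 277 CPM, under 2-fold. The 3 lower members were the monocyte-attracting chemokine Ccl2, at 118 against 687 CPM, Ccl6, at 635 against 1979 CPM, and Ccl9, at 76.4 against 1096 CPM.

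Receptors differed by member. Of 18 migration and adhesion members that passed of 21, 8 were at least 2-fold higher and 2 lower. Cxcr4, which holds neutrophils in the marrow, stood at 262 against 49.0 CPM, Ccr1 at 993 against 335 CPM, and C3ar1, a complement receptor, at 12.2 against 180.0 CPM. Of 17 pattern recognition members that passed of 20, 9 were at least 2-fold higher and 1 lower. The C-type lectin Clec4d stood at 1689 against 53.0 CPM and Trem1, an amplifier of Toll-like receptor signals, at 1815 against 166 CPM. Nlrp3, the inflammasome sensor, stood at 1229 against 425 CPM, while its adaptor Pycard stood at 51.2 against 188 CPM. Among 19 growth factor and cytokine receptors that passed of 20, 3 were at least 2-fold higher, Il1r2, Il1rap (315 against 11.1 CPM) and Il17ra (237 against 64.6 CPM), and Csf1r (89.4 against 474 CPM) and Il10ra (56.4 against 120 CPM) were lower. Fc receptors were 0 higher and 2 lower of 5 that passed, with Fcgr2b, the inhibitory receptor, at 99.8 against 1127 CPM and Fcgr1, the high-affinity receptor, at 13.9 against 233 CPM.

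Genes linked to suppression of T cells split by member. Of 11 that passed of 18, 6 were at least 2-fold higher and 1 lower, with a median of 1.79. Ptgs2, which makes prostaglandins, stood at 1466 against 125 CPM (3.55, 3.37 to 3.74), Arg2, the mitochondrial arginase, at 388 against 11.1 CPM, and Entpd1, an enzyme that degrades extracellular ATP, at 386 against 71.3 CPM. Cd274, which encodes PD-L1, stood at 466 against 111 CPM (2.07, 1.85 to 2.29), with a UMI in 27.7% of thinned neutrophils, 8.10% of monocytes and 5.40% of T cells. Arg1, the cytosolic arginase, was lower, with a log2 ratio of -3.40 (-4.07 to -2.79). Acod1, which makes itaconate, was on no such list and had one of the highest ratios of all genes, 2331 against 4.45 CPM (9.03, 8.15 to 10.09), with a UMI in 59.3% of thinned neutrophils and 0.188% of monocytes.

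MHC class II genes were lower in neutrophils than in the monocytes without exception. The monocytes also held dendritic cell transcripts, with Xcr1 at 150 and Clec9a at 98.0 CPM, and the part of such cells in the size of this difference was not tested. All 7 members passed the filter and stood 2.95 to 3.58 log2 units lower, with a median of -3.20. Cd74, the invariant chain, stood at 984 against 8495 CPM, and H2-Ab1 at 715 against 6567 CPM. Cd74 had a UMI in 17.5% of thinned neutrophils and 16.4% of T cells. MHC class I genes gave 0 of 11 past 2-fold, with H2-D1 at 3195 against 2873 CPM and B2m at 3515 against 4557 CPM. H2-Q10, at 332 CPM with 0 monocyte UMIs, has near-identical neighbours among the H2-Q genes, so its count is uncertain.

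**Figure D2:**
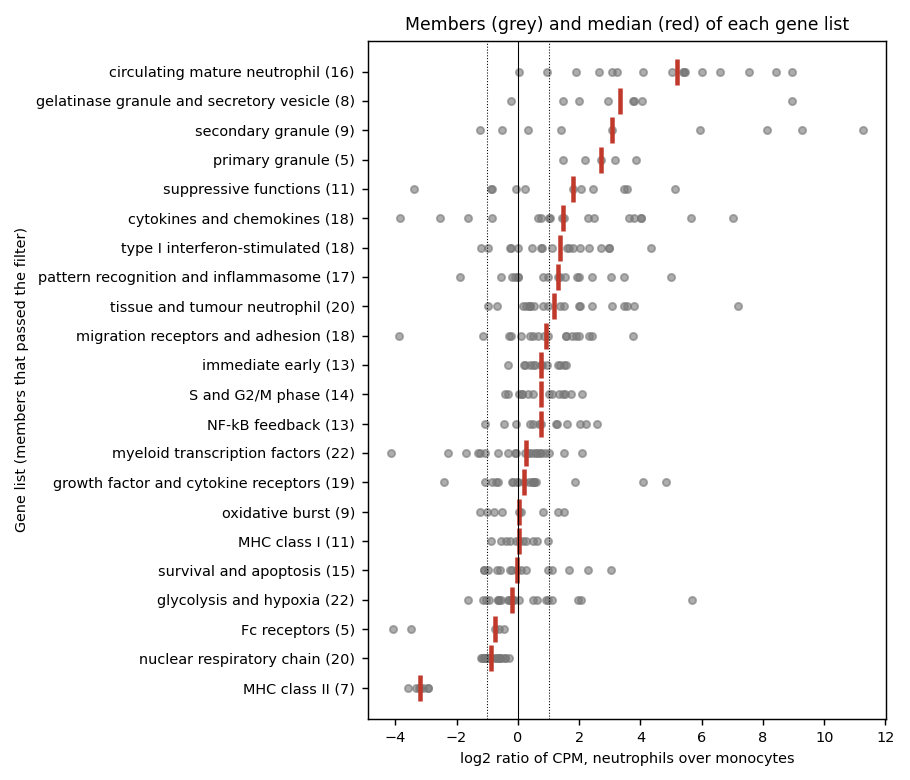
Log2 ratio of CPM, neutrophils over monocytes, of each gene (grey points) that passed the filter in 22 gene lists, with the list median as a red bar. Dotted lines mark 2-fold. Circulating mature neutrophil genes have the highest median (5.20) and MHC class II genes the lowest (-3.20).

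Type I interferon-stimulated genes split by member. Of 18 that passed of 22, 10 were at least 2-fold higher and 1 lower, with a median of 1.36 (interval over members -0.01 to 2.32), while the list summed to 3646 against 3540.2 CPM. The members Mx1, Mx2 and Ifi44, under the filter, stood at 1.74 against 29.0 CPM, 0 against 13.8 CPM and 0 against 15.6 CPM. Rsad2, viperin, stood at 326 against 16.0 CPM and Oasl2 at 653 against 161 CPM. Ifitm3 was the lower member, at 989 against 2270 CPM. NF-kB feedback genes gave 6 of 13 higher and 1 lower, led by Tnfaip2 and Nfkbiz, an atypical inhibitor, at 808 against 174 CPM. Of 13 immediate early genes that passed, 4 were higher, Dusp1, Jund, Egr1 and Jun. Among 22 transcription factors, 3 were at least 2-fold higher and 6 lower. Cebpd, a C/EBP factor, stood at 216 against 51.2 CPM, whereas the monocyte factors Irf8, at 60.8 against 295 CPM, and Klf4, at 156 against 509 CPM, were lower.

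Respiratory chain genes were lower in neutrophils, and glycolysis genes were spread around 0. Of 20 nuclear respiratory chain genes that passed of 21, 0 were higher and 8 lower, with a median of -0.89 and a range of -1.20 to -0.29. The 22 glycolysis and hypoxia genes had a median of -0.20, with 4 higher and 3 lower. Slc2a3, a high-affinity glucose transporter, stood apart at 228 against 4.45 CPM, while Ldha stood at 206 against 419 CPM. Of 15 survival genes that passed of 18, 2 were lower and 4 higher, among the higher ones Mcl1, at 2644 against 1209 CPM, and Bcl2l1, at 204 against 24.9 CPM. Oxidative burst genes had a median of 0.04, with Ncf1 and Rac2 higher and Cybb and Rap1a lower. The ribosomal protein genes took 3.62% of neutrophil and 7.76% of monocyte UMIs, and mitochondrial genes 4.65 and 7.34%. The target of BTYNB was not measurable in these cells: Igf2bp1 had 2 UMIs in neutrophils and 1 in monocytes, Igf2bp2 6 and 5, and Igf2bp3 3 and 6.

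The 15 lowest ratios with at least 100 CPM in monocytes included those of several known monocyte and macrophage genes. Ccl12, a monocyte chemokine, had 2 UMIs in neutrophils and 280 in monocytes, a log2 ratio of -6.17 (-9.22 to -4.30). Ms4a4c stood at 25.2 against 591 CPM, the scavenger receptor Msr1 at 22.6 against 503 CPM, and Mrc1, the mannose receptor, at 17.4 against 287 CPM. Other genes of this group were Spon1, Sdc3, Ms4a8a, Adap2, ENSMUSG00000120878, Fcgr1, C3ar1, Ly86 and Ccl9, with log2 ratios of -4.71 to -3.84. The 15 highest ratios also included Entpd3, Sycp2, Mirt2, Nlrp12, Chil1 and G0s2, beside the genes described above. Entpd3, an ectonucleotidase, had 181 UMIs in neutrophils and 1 in monocytes (8.46, 5.97 to 13.77). Mirt2, a noncoding RNA, and Nlrp12, a negative regulator of inflammation, had 250 and 205 UMIs against 2 each, and Chil1 and G0s2 had 284 and 228 UMIs against 0.

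The neutrophils differed among themselves by depth. A cut at 3000 UMIs, made after the values were seen, left 563 cells at or under it and 54 above, and the 54 held 30.3% of all neutrophil UMIs. The 2 sets differed in their gene lists. Cytokines and chemokines summed to 27888 CPM in the shallow cells and 3892 in the deep cells, with Il1b at 9210.1 and 707 CPM. Primary granule genes summed to 13.7 CPM in the shallow and 6125 CPM in the deep cells, S and G2/M phase genes to 392.3 and 2886 CPM, secondary granule genes to 3533 and 21362 CPM, and MHC class II genes to 895 and 7680.1 CPM. The median mitochondrial share was 1.98 and 6.18%, and monocyte markers summed to 753 and 2474 CPM. The primary granule, secondary granule, cell cycle and MHC class II lists therefore took much of their level from the deep cells.

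**Figure D3:**
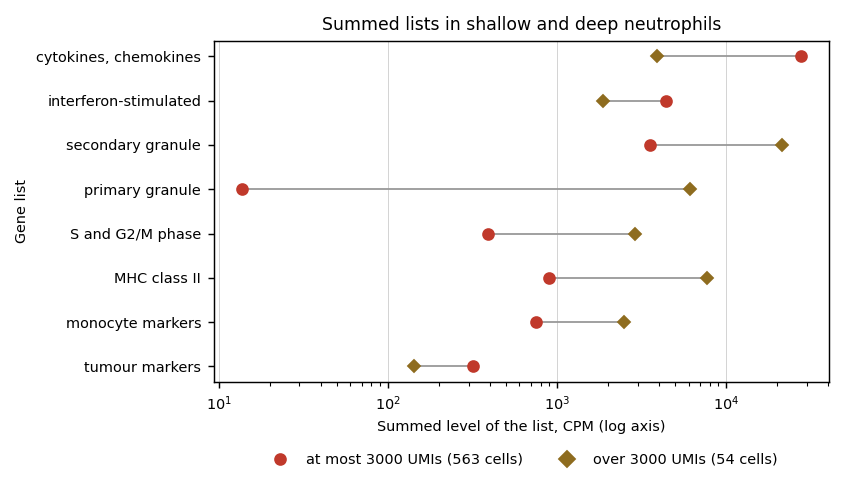
Summed CPM (log axis) of gene lists in the 563 neutrophils of at most 3000 UMIs (red circles) and the 54 above (brown diamonds), with no interval drawn. Cytokine and interferon-stimulated genes lie higher in the shallow cells, granule, cell cycle and MHC class II genes in the deep cells.

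Primary granule genes came from very few cells. Over all 617 neutrophils, 5 of 5 primary granule members were at least 2-fold higher than in monocytes, with Elane, neutrophil elastase, at 356 against 24.5 CPM and Mpo, myeloperoxidase, at 581 against 88.2 CPM. However, 10 cells held every Mpo UMI and 1 of them held 334 of 669, and 10 cells held 97.2% of the UMIs of Prtn3, proteinase 3. The 9 cells chosen after their values were seen, with at least 10 primary granule UMIs, had a median of 9471 UMIs, and all 9 also had at least 10 UMIs of S and G2/M phase genes. In those 9 cells Il1b, Cxcl2, Acod1 and Mmp9 had 0 UMIs, Ly6c2 stood at 5129 CPM, and Mki67, a proliferation marker, at 844 CPM. Without the deep neutrophils, Mpo stood at 2.49 CPM and Elane had 0 UMIs, under the levels of all monocytes. The list median over the members that still passed the filter was -4.29. The monocytes were not cut in this way, and 370 of the 531 exceeded 3000 UMIs. Mpo and Elane each had a UMI in only 0.942% of monocytes. The 2 groups were thus not treated alike, and the lower level in neutrophils cannot be read as a difference at like depth.

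**Figure D4:**
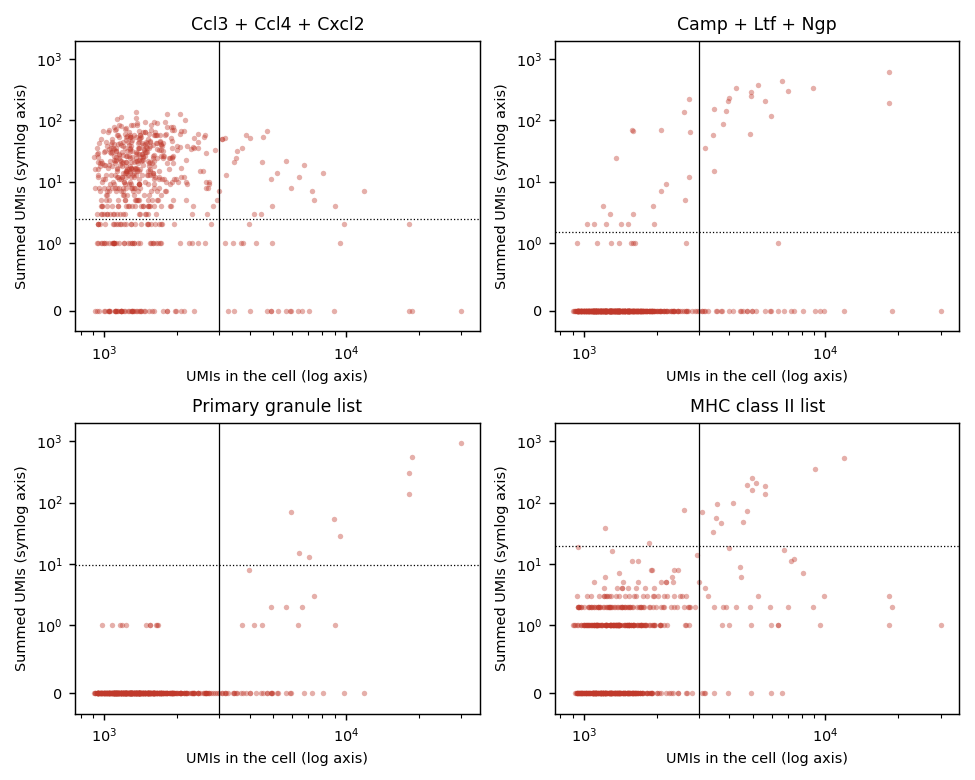
UMIs of 4 gene groups in each of the 617 neutrophils (vertical symlog axes, linear below 1) against the UMIs of the cell (log axis). The dotted line is the sub-gate of each group and the vertical line is 3000 UMIs; chemokine UMIs fill the shallow cells, and primary granule UMIs above the sub-gate appear only to the right of the line.

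Sub-gates on few genes described the rest. At 800 UMIs, 66.9% of the neutrophils (63.1 to 70.6%) held at least 3 UMIs of Ccl3, Ccl4 and Cxcl2, and 5.83% (4.12 to 7.99%) at least 2 of Camp, Ltf and Ngp. Without thinning these were 471 and 41 cells, and 17 met both. Of the 9 primary granule cells, which were deep and held no Il1b UMI, 1 was among the 471 and the rest were not. Il1b, which neither sub-gate used, stood at 8311 CPM in the 471 chemokine cells and 3099 CPM in the other 146. In the 41 secondary granule cells it stood at 652 CPM against 7616 in the others, Csf1 at 43.0 against 868 CPM and Ptgs2 at 98.4 against 1691 CPM. Those 41 cells held more Lcn2, 9612 against 721 CPM, Retnlg, 14679.7 against 1551 CPM, and Cd177, a surface protein of neutrophil subsets, 861 against 15.2 CPM. Their median depth was 2763 UMIs against 1355, and 20 of the 41 exceeded 3000 UMIs. Of the 41 cells, 5 were primary granule cells, which held no Il1b UMI, and 11 had at least 10 S and G2/M phase UMIs. The summed levels of the 41 therefore weigh these deep cells most, and levels without them were not taken.

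Retnlg, a transcript of mature neutrophils, was also uneven. It had 0 UMIs in 364 neutrophils and at least 10 in 63, a cut set after its values were seen, and 21 of the 41 secondary granule cells were among the 63. Of the 63 cells, 44 were also chemokine cells, and the cytokine and chemokine list summed to 19509 CPM in them against 20756 in the others. In these 63 cells Mmp8, neutrophil collagenase, stood at 2205 against 341 CPM in the others and Ly6g at 717 against 54.8 CPM, and Csf1 at 231 against 818 CPM and Ccl3 at 386 against 1378 CPM. Their median depth was 1683 against 1356 UMIs.

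Further sub-gates used interferon-stimulated genes and Siglecf. At 800 UMIs, 7.94% of neutrophils (5.93 to 10.4%) held at least 3 UMIs of Isg15, Ifit1, Ifit3, Ifit3b and Rsad2. Without thinning these were 83 cells, of which 71 were also chemokine cells, against 471 of all 617 neutrophils. In those 83 cells Slfn4 stood at 7656 against 2181 CPM and Cd274 at 991 against 397 CPM, neither of which set the sub-gate. The 83 held 0 of the 9 primary granule cells and 5 of the 54 neutrophils over 3000 UMIs. These deep cells weigh on the summed levels of the others, and levels without them were not taken. Siglecf, a sialic acid-binding receptor also found on tumour neutrophils and eosinophils, had a UMI in 5.19% of thinned neutrophils (3.57 to 7.24%). It had one in 0 of 531 monocytes, where a limit of 3 counts is 0.565%, and in 0.0878% of T cells. The 60 Siglecf cells held more Ccl3, 2620 against 1082 CPM, and Ccl4, 1266 against 367 CPM, and less Retnlg, 999 against 3732 CPM, while the whole cytokine and chemokine list summed to 17404 against 21053 CPM and the interferon list to 2229 against 3839 CPM. Of the primary granule cells, 2 were among the 60, including the deepest neutrophil with 30060 UMIs, and primary granule genes summed to 8930 against 903 CPM. That cell held 30060 of the 138190 UMIs of the 60. In the 9 primary granule cells the cytokine and chemokine list summed to only 527 CPM. The lower list sums and lower Retnlg of the 60 may therefore not hold for the other Siglecf cells, and sums without that cell were not taken.

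A last set stood apart from the others by MHC class II. A group of 19 cells, by a cut set after the values were seen, held at least 20 MHC class II UMIs, and 63.1% of all Cd74 UMIs lay in 10 cells. They had a median of 4553 UMIs, Cd74 at 10094 CPM, Ccr2 at 882 against 105 CPM and Il1r2 at 1153 against 4175 CPM. Dendritic cell markers summed to 882 CPM against 95.9 in the other neutrophils. Of the 19 cells, 10 were among the 5% of BTYNB cells with the highest doublet scores, against 25 of all 617 neutrophils, and the part of doublets in these values was not tested further. Without those 25 cells the MHC class II median was -3.77.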

How the data were processed

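Ascites cells of 4 treatment groups, 1 pooled library each, were profiled by BD Rhapsody whole-transcriptome single-cell RNA-seq. The authors deposited a matrix of raw UMI counts per gene and cell for each library, made with the BD pipeline; the submitters' processing notes name the build GRCm39, and the study's methods name scDblFinder for multiplets, and whether its calls were removed before deposit is not given in the sources used here. The BTYNB library held 19247 cells with 114600397 UMIs, the control library 7858 with 80499877, the anti-PD-1 library 12163 with 89236522 and the combination library 7074 with 78603888. The gate, gene lists and thresholds were chosen with earlier results of these data known. In the BTYNB library 331 cells under 200 genes and 633 over 33% mitochondrial UMIs were left out. Counts were summed over gated cells and given as CPM. With 1 library per group no test was run and genes were called by size, at least 2-fold, among those with a mean of at least 20 CPM and used by no gate. A gene at 0 in 1 group was set to 3 counts for a ratio. Intervals were exact Poisson for a CPM, conditional binomial for a ratio and Clopper-Pearson for a share, at 95%; they cover counting error only. The named genes were the 15 highest and 15 lowest ratios with at least 100 CPM in the higher group (no mitochondrial, ribosomal, Gm-numbered or Rik genes), the 15 highest levels, the 4 highest members of each list and all members of lists of up to 7, and the gate genes and neutrophil and monocyte markers; any other gene named was chosen after its values were seen, and some genes that the rule names are not reported here. The sub-gates on primary granule, cell cycle, MHC class II and Retnlg UMIs and the 3000 UMI limit were also set after the values were seen. Doublets stayed in; scrublet (scanpy 1.11.5) marked 2.61% of cells, and leaving out the 5% highest scores was an alternative. Promoter letters came from the RefSeq table of GRCm38.p6, not the files' build. Code was tested on simulated data (Python 3.11.15, numpy 2.4.6, scipy 1.17.1, pandas 2.3.3).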

Additional observations from a re-analysis of the deposited data

How the results depend on the processing

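The counts of genes at least 2-fold higher and lower (950 and 946) were 1735 and 1641 with a filter of 5 CPM and 551 and 530 with 50 CPM, because more or fewer genes were tested, and 1514 were lower with free RNA subtracted. Leaving mitochondrial and ribosomal genes out of the total moved the median of all genes from -0.04 to -0.16, and subtracting free RNA moved it to -0.23. Free RNA was estimated at 20.7% of neutrophil and 9.63% of monocyte UMIs. The neutrophil share was 2.89% with at least 10 S100a8 plus S100a9 UMIs, 2.84% with 0 keratin, Cd79 and Cd3 UMIs, and 3.08% with only the cells of at most 3000 UMIs. The primary granule median (2.72) was 4.25 with monocytes taken without exclusion terms and 5.49 with 0 keratin, Cd79 and Cd3 UMIs; it reversed to -2.28 between the 5th and 95th percentile of neutrophil depth and to -4.29 with neutrophils of at most 3000 UMIs, an alternative chosen after seeing the data. That last setting cut only the neutrophils and kept all 531 monocytes, deep ones included. In it Mpo reversed to -5.15, Prtn3 to -4.29, Ctsg to -3.66, Elane to -2.71, Ms4a3 to -1.63, Mki67 to -1.28 and Ube2c to -1.22. The S and G2/M phase median (0.76) was -1.22, and these genes lie in the deep neutrophils it leaves out. Prtn3 also reversed to -0.74 as a mean over cells and to -2.28 at matched depth. The MHC class II median (-3.20) was -3.64 without cells of both gates, -3.77 without the highest scrublet scores, -3.91 as a mean over cells, -3.91 at matched depth, -5.12 with free RNA subtracted and -4.76 with at most 3000 UMIs. The nuclear respiratory chain median (-0.89) was -1.20, -1.19, -1.47 and -1.30 in the last 4 of these. Thinning to 500 UMIs and no thinning moved the chemokine sub-gate (66.9%) to 58.5 and 76.3% and the interferon sub-gate (7.94%) to 3.57 and 13.5%, and no thinning moved the Siglecf sub-gate (5.19%) to 9.72%. At the depth common to all libraries the BTYNB share of gated cells was 0.435%, and these cells include the primary granule cells. Over all list medians and settings, 315 values stayed within their interval, 13 moved out of it and 2 reversed. That interval is a range over members and can be wide, -0.51 to 9.28 for secondary granule genes, so staying within it shows little. Of the values for single genes, 1454 stayed within their interval, 426 moved out of it in the same or an uncalled direction and 9 reversed. Depth limits the comparison of libraries: the other libraries hold no cell as shallow as the median neutrophil. No paired analysis was possible because each group is 1 pooled library.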
